A study of Mus musculus with 4 samples.

Results

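The response of P19 cells to retinoic acid was described in a line that overexpressed Ctcfl. P19 is a mouse embryonal carcinoma line, and Ctcfl (also called BORIS) is a testis zinc finger protein related to the insulator factor Ctcf. The description rests on 2 of the 4 arrays of the study: the differentiated Ctcfl line and the undifferentiated Ctcfl line. The value of each gene is the log2 signal on the first array minus that on the second. All probe sets with 1 gene symbol were taken, 23521 of 41345, and each gene was represented by the probe set with the highest mean signal. Of the 22180 genes obtained, 18310 reached log2 6 on at least 1 of the 4 arrays and were compared.

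Both arrays came from the same clone, which carried the stable integrates pBI-EGFP-FLAG-mCtcfl and pTA-N. The clone was kept in 2 µg/ml doxycycline, which holds the transgene off in this Tet-Off system, and doxycycline was withdrawn 2 days before RNA was taken for either array. The undifferentiated cells received the ethanol vehicle and the differentiated cells 10 µM retinoic acid for 4 days. The 2 wild-type arrays, with ethanol or with 10 µM retinoic acid for 4 days, are given beside these values where a result turns on them. The labels disagree on whether wild-type cells were grown normally or in 2 µg/ml doxycycline. By these times retinoic acid was added before doxycycline was withdrawn, and no array shows the level of Ctcfl when treatment began. A single clone was used, so what belongs to Ctcfl and what belongs to that clone cannot be told apart.

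Each condition had 1 array, so no difference below has a biological error or a test, and all statements are about these arrays. The only spread that can be given is technical: where a gene had several probe sets, their log2 differences varied with an SD of 0.331 in the Ctcfl line (874 genes). Array medians lay between 6.95 and 6.96. Olfactory receptor genes, which serve as a guide to background, had a median signal of 4.70 on each of the 2 Ctcfl-line arrays. Signals below log2 6 are therefore inexact. Where the lower signal of a gene was under 6, its fold is given as a minimum, computed against log2 6. The limit does not remove all background, since 238 of the 1088 olfactory receptor genes passed the log2 6 filter. A signal a little above log2 6 therefore does not by itself show that a gene was expressed.

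Retinoic acid is the active form of vitamin A. It binds nuclear receptors (Rara, Rarb, Rarg) that sit on DNA as dimers with the Rxr proteins, and it is destroyed by Cyp26 enzymes. In embryos it sets the position of cells along the head to tail axis, above all through the Hox genes, and in P19 cells it ends self-renewal and opens neural, mesodermal and endodermal fates, depending on dose and culture. Undifferentiated P19 cells resemble the epiblast and depend on factors such as Pou5f1, Nanog and Sox2. On the undifferentiated Ctcfl-line array Pou5f1 had a signal of 10.03, Nanog of 11.63, Sox2 of 11.90 and Utf1 of 11.71. Zfp42, a marker of the naive state, stood at 6.20 there.

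Sequences are shown for microRNAs of the genes described below, grouped by seed, to show which families their genes belong to, and for the promoters of 2 higher genes that carry a retinoic acid response element. The 5 genes of the Mir302 and Mir367 cluster lie within 580 bases on the plus strand of chromosome 3 (chr3:127545228-127545807, GRCm38.p6), inside the annotated extent of Larp7. Mature sequences are from RefSeq, 5′ to 3′, with the seed (bases 2 to 8) in capitals. The array was read by gene symbol, so the mature microRNAs themselves were not measured. Of the Mir302 and Mir367 cluster, miR-302a-3p is named only. The first group comes from genes whose array signal was lower with retinoic acid.
mmu-miR-302b-3p: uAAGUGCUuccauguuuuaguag
mmu-miR-302d-3p: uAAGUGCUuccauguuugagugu
mmu-miR-302c-3p: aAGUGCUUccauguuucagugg
mmu-miR-290a-3p: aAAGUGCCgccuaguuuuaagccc
mmu-miR-367-3p: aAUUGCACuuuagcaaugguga
mmu-miR-363-3p: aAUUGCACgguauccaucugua
mmu-miR-19b-3p: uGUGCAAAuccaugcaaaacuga
MicroRNAs of genes with a higher array signal follow, in the same format, with Mir9-2 above log2 6 only with retinoic acid in the Ctcfl line.
mmu-miR-9-5p: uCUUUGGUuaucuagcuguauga
mmu-let-7e-5p: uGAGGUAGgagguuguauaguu
mmu-miR-19a-3p: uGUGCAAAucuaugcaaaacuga
The seed AAGUGCU is shared by miR-302b-3p and miR-302d-3p, and the same 7 letters begin at base 1 of miR-302c-3p. The seed of miR-290a-3p, AAGUGCC, differs from it in its last letter. The seed AUUGCAC is shared by miR-367-3p, from chromosome 3, and miR-363-3p, from the X chromosome. The seed GUGCAAA is shared by miR-19b-3p and miR-19a-3p, whose genes Mir19b-2 and Mir19a differed in opposite directions.

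Retinoic acid receptors bind direct repeats of a half-site, classically with 5 bases between the repeats. RefSeq promoters (GRCm38.p6, 250 bases before to 50 after the start) were searched on both strands for 2 half-sites, each AGGTCA or AGTTCA or GGGTCA or GGTTCA, 5 bases apart. Of 32851 promoters 32 held such a repeat (0.0974%). Among 14149 compared genes with a promoter 10 held it (0.0707%), and among 409 of them that were at least 2-fold higher 2 did (0.489%), Rarb and Cyp26a1. None of 191 genes at least 2-fold lower held it. A repeat with 2 bases between the half-sites was found in the promoters of 3 of the 409 (0.733%), Casd1, Slc25a21 and Tinagl1. It was also found in 1 of the 191 lower genes (0.524%), against 15 of 14149 (0.106%). A repeat with 1 base was found in 1 of the 409 (0.244%), Akt1, and in 0 of the 191, against 39 of 14149 (0.276%). These are matches of letters, and no binding was measured. The promoters of Rarb and Cyp26a1 are printed because both genes stand at the centre of the retinoid results, with the half-sites in capitals.
Rarb, chr14:16575427-16575726, minus strand, repeat at bases -53 to -37: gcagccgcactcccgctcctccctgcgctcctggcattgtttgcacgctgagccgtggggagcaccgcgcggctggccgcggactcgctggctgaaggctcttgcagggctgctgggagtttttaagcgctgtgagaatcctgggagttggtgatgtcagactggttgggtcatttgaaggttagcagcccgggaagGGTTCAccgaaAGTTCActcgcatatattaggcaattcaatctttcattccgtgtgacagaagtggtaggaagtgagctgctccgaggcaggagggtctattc
Cyp26a1, chr19:37697558-37697857, plus strand, repeat at bases -32 to -16 on the opposite strand: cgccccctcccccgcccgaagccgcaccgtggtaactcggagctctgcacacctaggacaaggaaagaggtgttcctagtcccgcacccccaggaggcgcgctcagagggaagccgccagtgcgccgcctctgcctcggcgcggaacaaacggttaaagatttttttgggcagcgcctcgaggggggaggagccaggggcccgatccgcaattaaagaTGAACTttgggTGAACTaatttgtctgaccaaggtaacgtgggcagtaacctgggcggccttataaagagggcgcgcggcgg

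With retinoic acid 588 of the 18310 genes (3.21%) were at least 2-fold higher in the Ctcfl line and 274 (1.50%) were at least 2-fold lower. At 4-fold there were 105 higher and 40 lower, and at 16-fold 4 higher and 6 lower, or 3 lower where signals under log2 6 were set to 6. The distribution leaned slightly the other way at its centre: the median log2 difference was -0.05, and 8109 genes (44.3%) lay above 0. The middle range, from the 25th to the 75th percentile, ran from -0.27 to 0.21, and the 1st and 99th percentiles were -1.21 and 1.63. The higher genes had a median signal of 7.72 before and 9.32 after retinoic acid, and 33 of the 588 (5.61%) stood below log2 6 beforehand. The lower genes had a median of 9.45 before and 7.85 after, and 23 of the 274 (8.39%) were below log2 6 afterwards. Of 43 genes past 2-fold with several probe sets past log2 6, 34 had all their probe sets on the same side of 0 and 7 had all of them past 2-fold. In bulk RNA a lower signal from fewer cells of a type and one from less RNA per cell cannot be told apart.

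**Figure D1:**
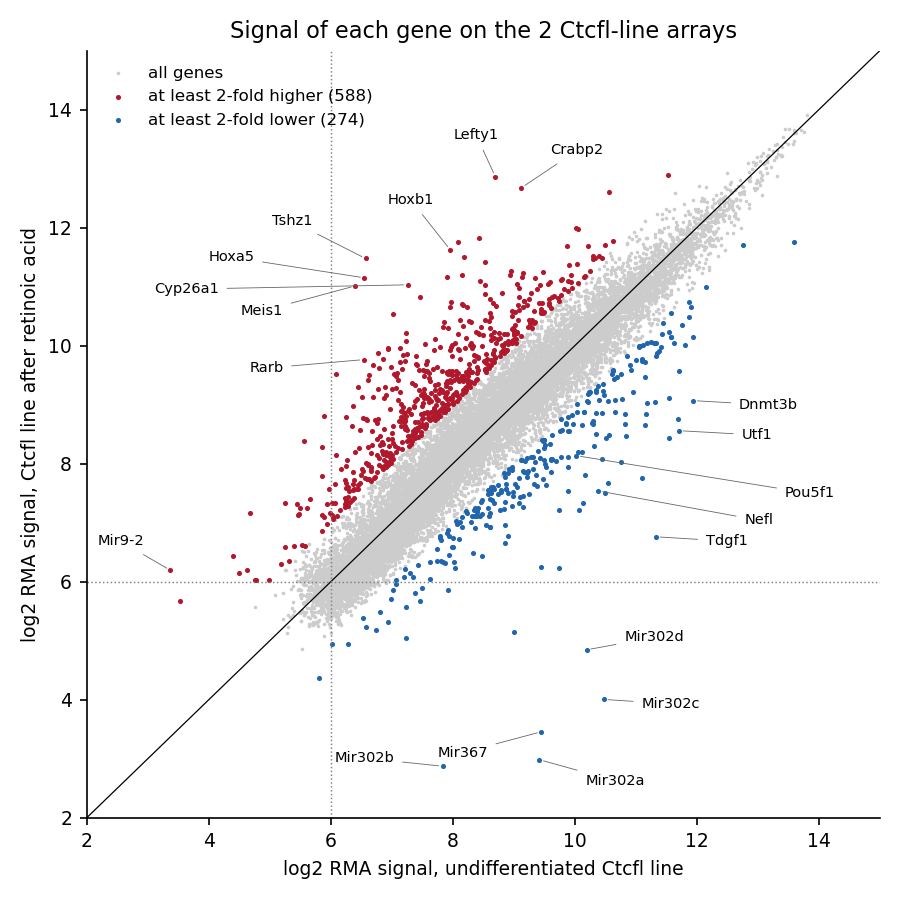
Each point is 1 of the 18310 genes, with the log2 RMA signal of the undifferentiated Ctcfl line on the x axis and that of the Ctcfl line after retinoic acid on the y axis; red and blue mark the 588 and 274 genes at least 2-fold apart, the solid line marks equal signals and the dotted lines log2 6. Tshz1, Meis1 and Hoxa5 lie farthest above the line, and the Mir302 and Mir367 genes lie below it with retinoic acid signals under log2 6, where sizes are inexact.

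Genes that sense, carry and break down retinoids stood among the highest. Cyp26a1, an enzyme that degrades retinoic acid, had a log2 signal of 7.27 undifferentiated and 11.03 with retinoic acid, which is 13.6-fold. Dhrs3, which reduces retinaldehyde back to retinol, had signals of 8.08 and 11.75, and Cyp26b1, a second degrading enzyme, of 7.85 and 10.40. These 3 were the only members of 28 retinoid metabolism genes past 2-fold, and none was lower. Genes that make retinoic acid differed less: Aldh1a2 had a difference of 0.81, Aldh1a1 of 0.49 and Aldh1a3 of -0.54, while Rdh10, which oxidizes retinol, stood at 8.98 and 8.89. In wild type Rdh10 had signals of 7.94 and 9.68 and Aldh1a2 of 6.44 and 8.37, so that their wild-type differences were 1.75 and 1.93.

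Of 25 retinoid receptors and binding proteins, 5 were at least 2-fold higher and 1 was lower. Crabp2, which carries retinoic acid to the nucleus, had signals of 9.13 and 12.68 (11.7-fold), and its relative Crabp1 of 8.43 and 11.82 (10.5-fold). Stra6, the membrane receptor for retinol binding protein, had signals of 8.16 and 10.70. Among the receptors themselves the gene with the printed response element, Rarb, had signals of 6.54 and 9.77 (9.34-fold), while Rara differed by 0.77 and Rarg by -0.86. Nrip1, a corepressor of nuclear receptors, was 3.38-fold higher. Rxrg was the member that was lower, with signals of 8.90 and 6.78 (-2.13), whereas Rxra differed by 0.94 and Rxrb by 0.25. The direction was the same in wild type, where the difference was 3.45 for Rarb, 2.23 for Crabp2, 2.91 for Crabp1 and -1.39 for Rxrg. Cyp26a1 differed by 3.77 in the Ctcfl line and 2.15 in wild type, with undifferentiated signals of 7.27 and 7.11 and retinoic acid signals of 11.03 and 9.26.

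**Figure D2:**
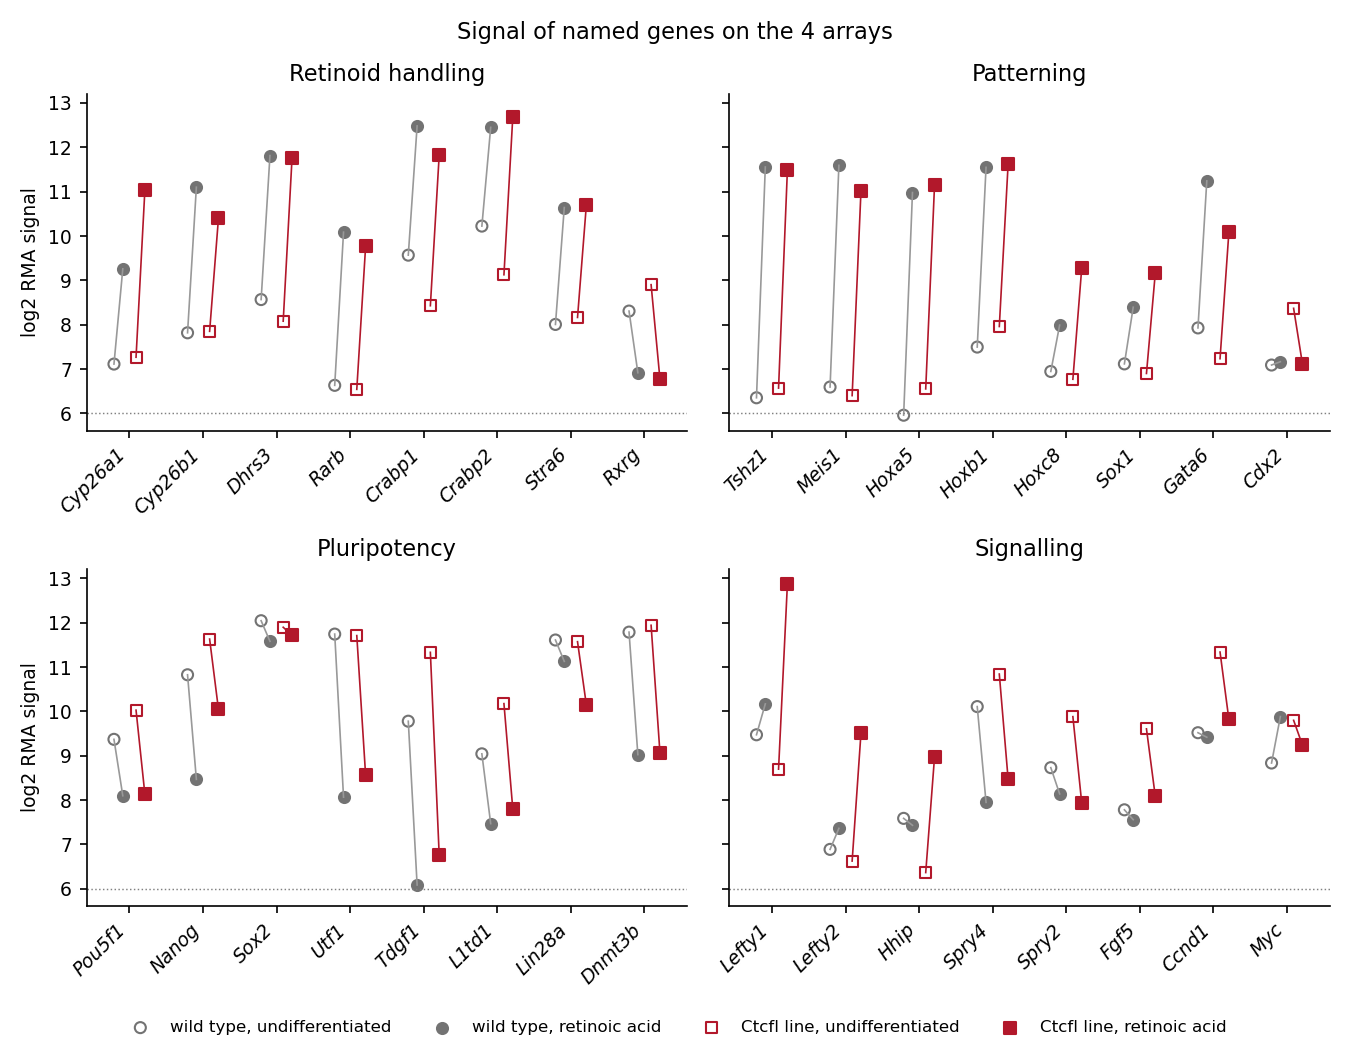
Log2 RMA signals (y axis) of 8 genes in each of 4 groups (x axis) on the 4 arrays: circles for wild type and squares for the Ctcfl line, open for undifferentiated and filled for retinoic acid, 1 array per symbol, joined within a line. Retinoid and patterning genes lie higher with retinoic acid, except Rxrg and, in the Ctcfl line, Cdx2, and the pluripotency genes lie lower, Sox2 by 0.18 in the Ctcfl line.

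Transcription factors that give cells a position in the body axis held the very top of the list. Tshz1, a zinc finger factor of the trunk, had signals of 6.57 and 11.48, a difference of 4.91, the highest of all genes. Meis1, a homeodomain partner of the Hox proteins, followed with 6.40 and 11.01 (24.5-fold), and Hoxa5 with 6.55 and 11.15 (24.2-fold). Meis2 had signals of 10.02 and 11.99, and its undifferentiated signal in wild type was 8.49. Tshz3 was 5.57-fold, Zfhx4 4.77-fold, Zfpm1 2.68-fold and Zfhx3 2.40-fold higher. Sall3, a Spalt factor, was lower, with signals of 10.45 and 8.08. Of 32 genes listed as induced by retinoic acid 10 were at least 2-fold higher, with Zfp703 at 6.37-fold, Foxa1 at 5.61-fold and Nr2f2 at 3.99-fold, and 1 was lower, Wnt8a. The median of this list was 0.30, against 0.69 in wild type, where 12 were higher and 0 lower.

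The Hox genes differed by their place in the clusters. Hox genes are switched on by retinoic acid from the 3′ end of each cluster, where the low-numbered paralog groups lie, and these serve the head end of the axis. Of 36 Hox genes measured 20 were at least 2-fold higher and 0 lower. In paralog groups 1 to 5 these were 12 of 13 genes (median difference 2.59), in groups 6 to 9 they were 8 of 12 (median 1.43), and in groups 10 to 13 they were 0 of 11 (median -0.11). Wild type had 12, 5 and 0 genes past 2-fold in the same groups, with medians of 2.33, 0.95 and -0.05.

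By cluster, HoxB had 9 of 10 genes past 2-fold, HoxA 5 of 9, HoxC 5 of 9 and HoxD 1 of 8. Hoxb1 had signals of 7.96 and 11.63 (12.7-fold), and Hoxb5 of 6.86 and 9.78. The other probe set of Hoxb5 gave 7.44 and 8.09. Hoxa2 was 7.08-fold, Hoxa4 5.62-fold and Hoxa3 4.91-fold higher. Hoxb13 lay below 2-fold at 0.91. Hoxd3, which had signals of 7.36 and 8.96, was the HoxD gene past 2-fold, and Hoxd1 differed by 0.74. The HoxC cluster had a median difference of 1.50 in the Ctcfl line and 0.28 in wild type. Its genes varied in both directions between the lines: Hoxc8 had signals of 6.77 and 9.27, against 6.95 and 7.99 in wild type, and Hoxc9 of 6.23 and 7.72, against 6.42 and 6.70, while Hoxc5 had 5.56 and 8.39, against 4.62 and 9.43. The Hoxc5 value is at least 5.25-fold in the Ctcfl line, since its undifferentiated signal lay below log2 6.

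**Figure D3:**
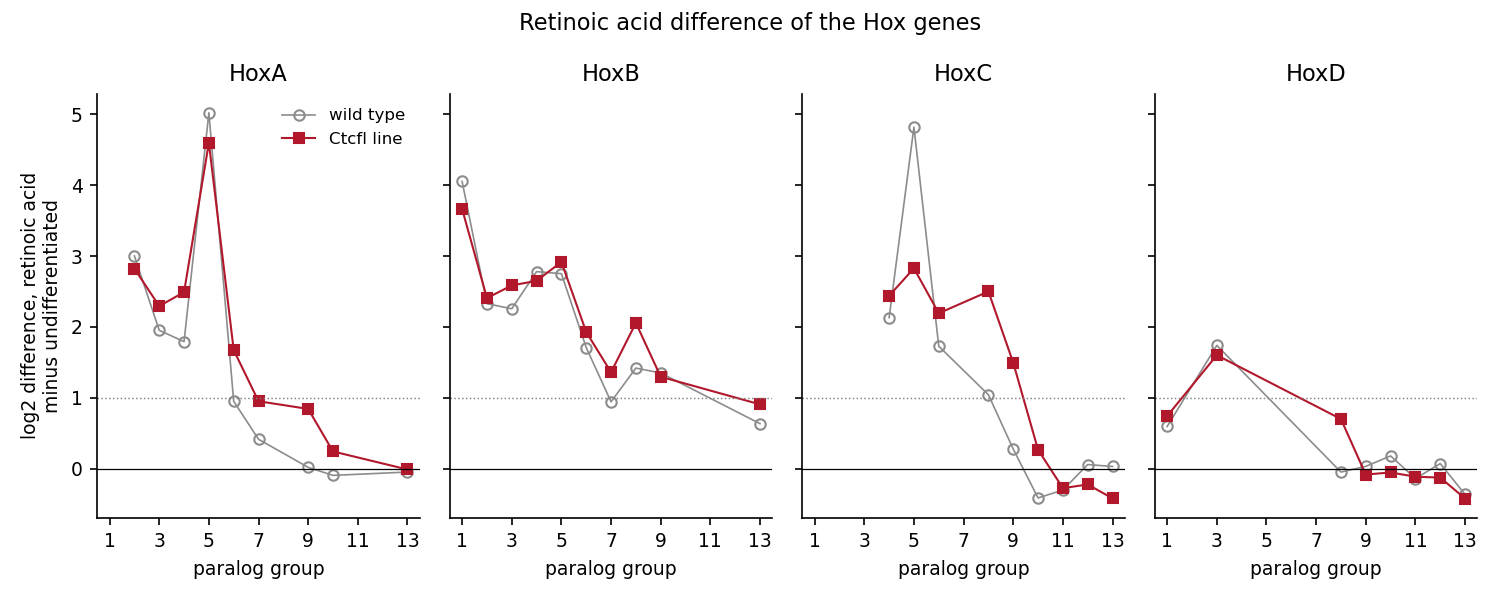
Log2 difference with retinoic acid (y axis) of each measured Hox gene against its paralog group (x axis), by cluster, for the Ctcfl line (filled squares) and wild type (open circles), 1 value per gene; the dotted line marks 2-fold. Groups 1 to 5 have a median of 2.59 in the Ctcfl line, and groups 10 to 13 have a median of -0.11.

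Cdx genes, which act upstream of posterior Hox genes, were not among the higher ones. Cdx2 had signals of 8.37 and 7.11 and Cdx4 of 7.94 and 6.45, while in wild type Cdx2 stood at 7.09 and 7.17 and Cdx4 at 6.35 and 6.35. The lines thus lay farther apart before treatment than after it. Cdx1 had signals of 7.09 and 7.70.

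MicroRNA genes of pluripotent cells stood among the lowest genes together with Tdgf1. Members of the Mir302 and Mir367 cluster silence targets that would slow the cell cycle or favour differentiation, and are made in pluripotent cells. Mir302c had signals of 10.48 and 4.01, Mir302a of 9.42 and 2.98, Mir367 of 9.45 and 3.46, Mir302d of 10.20 and 4.85, and Mir302b of 7.84 and 2.87. All 5 signals with retinoic acid lay below log2 6, so Mir302c was at least 22.3-fold lower, Mir302d at least 18.3-fold, Mir302a at least 10.7-fold and Mir302b at least 3.58-fold, with Mir367 between Mir302a and Mir302d. Against the same limit these minimums lay below the 23.7-fold of Tdgf1, both of whose signals exceeded log2 6, so the order of these genes is not known. Larp7, the gene within which they lie, had signals of 11.21 and 10.79. Wild type gave like signals, with Mir302c at 10.53 and 4.05.

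Mir290a, from the other cluster of microRNAs known from mouse pluripotent cells, had signals of 9.01 and 5.16 (at least 8.03-fold lower). Members of another family of clusters, related to the Mir17 cluster, were measured too. On the X chromosome Mir19b-2, Mir18b and Mir363 had differences of -1.80, -1.32 and -1.31, and the signal of Mir19b-2 with retinoic acid, 5.67, lay below log2 6 (at least 2.77-fold lower). Their relatives of the chromosome 14 cluster pointed the other way: Mir19a was higher by 1.04, Mir18 by 0.48 and Mir17 by 0.37. Array signals of a microRNA gene may come from the precursor or the host transcript, and which was read was not tested. Of 15 microRNA genes of pluripotent cells 9 were at least 2-fold lower and 1 was higher.

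Of 21 microRNA genes of differentiating cells 3 passed 2-fold upwards on the deposited signals, and 2 where signals under log2 6 were set to 6. The one lost was Mir9-2. Mir9-2, the source of the neural microRNA miR-9, had signals of 3.37 and 6.20, and 3.04 and 3.18 in wild type. Only the retinoic acid signal of the Ctcfl line exceeded log2 6, and the minimum fold was 1.15. The overlapping transcript C130071C03Rik had signals of 5.25 and 7.34 (at least 2.53-fold) and of 5.51 and 5.57 in wild type. Mirlet7e, of the let-7 family that blocks Lin28 and other self-renewal genes, had signals of 6.47 and 7.67, while in wild type they were 6.68 and 6.31. With its probe sets averaged the Mirlet7e difference was 0.88. Spaca6, in which it lies, had signals of 7.41 and 9.69. Mir99ahg, the host transcript of Mir99a, was at least 2.25-fold higher.

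The pluripotency network was lower in part. Of 46 core pluripotency genes 17 were at least 2-fold lower and 1 was higher, with a median difference of -0.48 against -0.05 for all genes. Wild type had 13 lower and 1 higher in this list, with a median of -0.55. Tdgf1, the Nodal co-receptor also called Cripto, had signals of 11.33 and 6.76 (23.7-fold lower), and Utf1, a chromatin factor of pluripotent cells, of 11.71 and 8.56 (8.87-fold lower). L1td1, an RNA-binding protein, was 5.17-fold lower. Pou5f1, the central factor of the network, had signals of 10.03 and 8.14 (3.71-fold lower) and Nanog of 11.63 and 10.05 (2.99-fold lower). Sox2, which is also a neural factor, differed by -0.18, and Sall4 by -0.63.

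Within the same list Nr0b1, Zscan10, Mycn, Phc1, Lin28a, Fgf4, Foxd3, Gdf3 and Dppa4 were between 2.08-fold and 3.45-fold lower. Tbx3 was the higher gene, with signals of 8.81 and 10.90; it is also a factor of early endoderm and mesoderm. Esrrb and Klf4, factors of the naive state, differed by 0.08 and 0.02. After retinoic acid, and without regard to any gap before treatment, some members stood higher than in wild type. Nanog stood at 10.05 against 8.47, Dppa2 at 10.38 against 7.85 and Nr0b1 at 8.88 against 6.94. Lin28a went the other way, with 10.15 against 11.13 and undifferentiated signals of 11.57 and 11.61. The median signal of the list was already higher in the undifferentiated Ctcfl line than in undifferentiated wild type, 9.81 against 9.47. With retinoic acid it was 8.93 against 8.47.

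Genes of the primed epiblast, the state after implantation, had a median difference of -1.34, against -0.61 in wild type. Of 19 members 12 were at least 2-fold lower and 0 higher. Pim2, a survival kinase, had signals of 11.55 and 8.43, Fst, an inhibitor of activin, of 11.69 and 8.75, and Dnmt3b, which methylates DNA de novo, of 11.94 and 9.07. Otx2, a factor of the epiblast and of the forebrain, had signals of 10.76 and 8.03. Some of these genes stood higher in the undifferentiated Ctcfl line than in undifferentiated wild type, among them Fgf5 at 9.61 against 7.78 and Wnt8a at 9.69 against 8.32. With retinoic acid Fgf5 stood at 8.08 in the Ctcfl line and 7.56 in wild type, and Wnt8a at 8.04 and 7.95. Among the 25 lowest genes outside these lists were Timp4, an inhibitor of matrix proteases (11.4-fold lower), Foxi3, a forkhead factor (10.2-fold), Zyg11a (9.20-fold), Pdzd4 (7.29-fold), Alox15, a lipoxygenase (7.20-fold), and Efhd1 (6.91-fold). The second probe set of Efhd1 differed by -0.27.

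Signals of the Nodal pathway split. Nodal keeps the epiblast pluripotent and induces mesoderm and endoderm, and Lefty1 and Lefty2 are secreted antagonists that it induces. Lefty1 had signals of 8.70 and 12.87, a difference of 4.17, and in wild type of 9.47 and 10.17. Lefty2 had signals of 6.63 and 9.51 (7.37-fold higher), and in wild type of 6.89 and 7.36. The 2 genes are close relatives, and whether their probe sets read each other was not tested. Nodal itself had signals of 10.36 and 10.94, and of 9.02 and 9.32 in wild type. Eomes, Evx1, Wnt3 and Gdf3, genes of the primitive streak or of Nodal type signalling, were lower by differences of -1.65, -1.39, -1.07 and -1.28, and Lhx1, a factor of axial and intermediate mesoderm, was 4.01-fold higher. Of the 32 genes of the list 3 were higher and 5 lower.

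Of 43 genes of FGF signalling 4 were at least 2-fold higher and 7 lower, with a median of -0.12. Spry4 and Spry2, feedback inhibitors of the pathway, had signals of 10.84 and 8.47 and of 9.88 and 7.94. Other feedback inhibitors differed less: Dusp6 by -0.17, Dusp4 by 0.23, Spry1 by 0.13 and Spred1 by -0.31. The ligands Fgf15, Fgf5 and Fgf4 and the Ets factors Etv4 and Etv5 were between 2.53-fold and 3.57-fold lower. The second probe set of Fgf15 differed by -0.42 and that of Etv5 by -0.68. Fgfr2 had signals of 8.65 and 10.73, against 10.39 and 10.64 in wild type, so that the lines differed before rather than after treatment. Fgfrl1, a receptor without a kinase, was 2.27-fold higher, Klb, a co-receptor, 5.40-fold, and Flrt3, a membrane partner of FGF receptors, 8.03-fold.

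In the Hedgehog pathway 5 of 18 genes were at least 2-fold higher and 0 lower, with a median of 0.47. The 5 act at the cell surface or outside it. Hhip, which traps the ligand, had signals of 6.37 and 8.98, and of 7.59 and 7.43 in wild type. Gas1, Cdon and Boc, the co-receptors, were 4.99-fold, 3.96-fold and 3.73-fold higher, and Scube1, of a family that helps release the ligand, 3.56-fold. The ligand gene Shh stood at 6.42 and 6.45, and the target genes Gli1 and Ptch1 differed by 0.08 and 0.10.

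For Wnt signalling 7 of 66 genes were higher and 3 lower. The receptor Fzd8 had signals of 7.91 and 11.16 (9.55-fold), Fzd4 was 2.85-fold and Fzd2 2.08-fold higher. Wls and Porcn, which export and lipidate Wnt ligands, were 2.77-fold and 2.39-fold higher, as was the antagonist Dkk1 at 2.17-fold, or a difference of 0.995 after quantile normalization of the arrays. Lef1, a nuclear effector, had signals of 9.60 and 8.34. In BMP and TGF-beta signalling 5 of 55 were higher, namely the ligands Bmp4 (4.32-fold), Gdf11 (3.58-fold) and Bmp7 (3.23-fold), the inhibitory Smad6 (4.21-fold) and the protease Bmp1 (2.07-fold, or a difference of 0.97 after quantile normalization). The 4 that were lower were Fst, Gdf3, Tgfb1 (2.15-fold) and Tgfbr3, a co-receptor, with signals of 10.12 and 8.20 against 9.01 and 9.02 in wild type. In the Notch pathway the receptor Notch1 was 2.08-fold higher (a difference of 0.94 after quantile normalization) and the ligand Jag1 2.08-fold lower. The ligand Dll1 had signals of 7.38 and 9.34 on its main probe set and of 7.25 and 7.23 on its other one.

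Genes of neural progenitors and of neurons were listed apart. Of 37 neural progenitor genes 12 (32.4%) were at least 2-fold higher and 2 (5.41%) lower, with a median of 0.42. Of 67 proneural and neuronal genes 3 (4.48%) were higher and 3 (4.48%) lower, with a median of -0.15. Among all genes 3.21% were higher and 1.50% lower. No test of the difference between these lists was made. Sox1, an early neural factor, had signals of 6.90 and 9.16, and Sox9 of 7.98 and 10.01. Nes, an intermediate filament of progenitors, was 2.94-fold and Pax6 2.13-fold higher, though Pax6 had a difference of 0.97 after quantile normalization. Ednrb, the endothelin receptor of neural crest and glia, was 11.5-fold and Dach1, a corepressor, 8.62-fold higher. Fabp7 and Slc1a3, markers of radial glia, were 3.34-fold and 2.40-fold lower.

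Among neuronal genes Ebf1 was 4.53-fold and Dcx, a microtubule protein of migrating neurons, 2.18-fold higher. Dpysl3 had a difference of 1.32 on its main probe set and -0.20 on its other. The neurofilament genes Nefl and Nefm and the related Ina were lower, with Nefl at 10.39 and 7.54 (7.21-fold), Nefm 3.22-fold and Ina 2.47-fold. Tubb3, Map2 and Neurod1, neuronal markers, differed by -0.17, 0.21 and -0.48, and Stmn2 by -0.67. Of 63 axon guidance genes 13 were higher and 1 lower. Plxna2, a semaphorin receptor, had signals of 8.19 and 11.50 (9.95-fold), and Nrp1, its co-receptor, of 6.47 and 8.58. Epha1, an ephrin receptor of epithelia, had signals of 10.50 and 7.50. In the neural crest list 9 of 27 were higher and 1 lower, with a median of 0.20. Wild type had 12 higher and 0 lower in this list, with a median of 0.67. Among the genes higher in the Ctcfl line were Sox10 with signals of 7.21 and 8.59, against 7.38 and 7.42 in wild type, and Erbb3 with 8.28 and 9.39, against 8.84 and 8.58.

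Patterning factors of the neural tube outside the Hox clusters were listed by region. Of 42 hindbrain and spinal cord genes 8 were higher and 2 lower, and of 38 forebrain, midbrain and Zic genes 2 were higher and 3 lower. The lower ones were Otx2, Zic2 and Zic5, of which Zic5 was 2.73-fold lower, or differed by -0.97 when its probe sets were averaged. Msx2, a dorsal factor, was 3.23-fold and Pax3 2.21-fold higher. Irx3 had a difference of 1.48 on its main probe set and 0.02 on its other, and Gata3 of 1.12 and 0.09.

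Of 44 mesoderm genes 5 were at least 2-fold higher and 0 lower, against 12 and 1 in wild type. Meox1, a factor of somites, had signals of 6.98 and 8.92, and Lhx1, Foxc1, Gata5 and Pax3 were the others. Some factors that were past 2-fold in wild type were not in the Ctcfl line: Twist1, of mesenchyme, had signals of 7.74 and 7.48, against 7.17 and 9.56, Osr1, of intermediate mesoderm, of 7.26 and 7.90, against 7.13 and 10.00, and Foxf1, of visceral mesoderm, of 7.27 and 7.42, against 7.13 and 9.11. For Osr1 and Foxf1 the lines lay close together undifferentiated and apart with retinoic acid. Tbx6 and Mesp1, markers of early mesoderm, differed by 0.56 and -0.42.

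Of 40 endoderm genes 7 were higher and 0 lower. Gata6, the leading factor of primitive endoderm, had signals of 7.23 and 10.08 (7.21-fold) and Foxa1 of 7.55 and 10.03. Pth1r, a receptor of parietal endoderm, was 2.87-fold, Lama1 2.03-fold and Pdgfra 2.77-fold higher, with Lama1 at 0.91 after quantile normalization. Other endoderm markers were not: Gata4 differed by -0.15, Sox17 by -0.10, Sox7 by -0.17, Afp by -0.24 and Ttr by 0.29. Nid1, a basement membrane protein, had signals of 7.58 and 9.12, against 8.98 and 8.95 in wild type. Nepn, a small leucine-rich protein of early gut, had signals of 5.61 and 7.25 (at least 2.37-fold), against 6.15 and 10.76.

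Markers of cells that the culture should not hold were low. Alb had signals of 6.09 and 5.78 and Cd3e of 6.43 and 6.42. Of 15 blood, muscle and liver genes past the filter 1 was at least 2-fold higher, the macrophage marker Cd68 (2.06-fold), and 0 lower, with a median of -0.32. After quantile normalization Cd68 differed by 0.93 and no longer passed 2-fold.

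Of 45 genes of trophoblast and simple epithelium 7 were higher and 6 lower. Cdh1 and Epcam, adhesion molecules of the epiblast and of epithelia, were 2.71-fold and 2.77-fold lower, and Esrp1, Grhl2 and Elf3, epithelial regulators, between 2.08-fold and 2.53-fold lower. Grhl3 went the other way, with a difference of 1.18, and of -0.27 in wild type. Cdh2, the cadherin of neural and mesenchymal cells, had signals of 10.63 and 11.78. The keratins Krt8 and Krt18 were 3.02-fold and 2.30-fold higher, and the desmosome genes Dsp, Ppl and Dsc2 3.39-fold, 3.22-fold and 2.88-fold. Other genes of these junctions did not pass 2-fold: the desmosomal cadherin Dsg2 differed by -0.65 (-0.29 with its probe sets averaged) and Pkp2 by -0.38, and the tight junction genes Cldn3 and Cldn7 differed by 0.17 and -0.18. The trophoblast markers Elf5 and Hand1 differed by -0.81 and -0.32.

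Of 54 cadherins and protocadherins 14 were higher and 2 lower, of which Cdh12 passed 2-fold only through a signal under log2 6. The protocadherin beta genes, a cluster of neuronal adhesion molecules, made up much of this: 10 of 18 measured were at least 2-fold higher and 0 lower, with a median of 1.09, against 0.41 in wild type. Their undifferentiated signals lay between 5.48 and 7.56 and those with retinoic acid between 6.05 and 8.59. Pcdhb16 had signals of 6.18 and 7.91, Pcdhb17 of 6.87 and 8.59, and Pcdh7, from elsewhere in the genome, of 7.55 and 9.57. The beta genes are similar in sequence, so their probe sets may read each other, and this was not tested.

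Of 75 collagen and matrix genes 12 were higher and 1 lower. Npnt, a matrix protein that binds integrin, had signals of 8.15 and 11.20 (8.27-fold), Col2a1, a cartilage collagen that is also made in embryonic epithelia, was 4.50-fold higher, and Tnc had signals of 6.61 and 8.29. Fbn2, a fibrillin, was 5.43-fold higher. Dcn, a proteoglycan of connective tissue, had signals of 5.90 and 8.81 (at least 7.01-fold), against 5.94 and 10.64 in wild type. Of 32 smooth muscle and contractile genes 2 (6.25%) were higher, against 3.21% of all genes, and 0 lower, with a median of 0.18. Wild type had 4 higher and 2 lower. The 2 were Tpm2 (2.38-fold) and Itga5 (2.19-fold), while Acta2 differed by 0.20 and Tagln by 0.39. Others of the 25 highest genes were Csn3, a casein (10.7-fold), Cpm, a carboxypeptidase (10.3-fold), Kitl, the ligand of Kit (8.16-fold), Serpinf1, also called PEDF (7.41-fold), Foxq1 (7.86-fold) and Ap3b2 (7.85-fold). The second probe set of Foxq1 differed by 0.25.

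**Figure D4:**
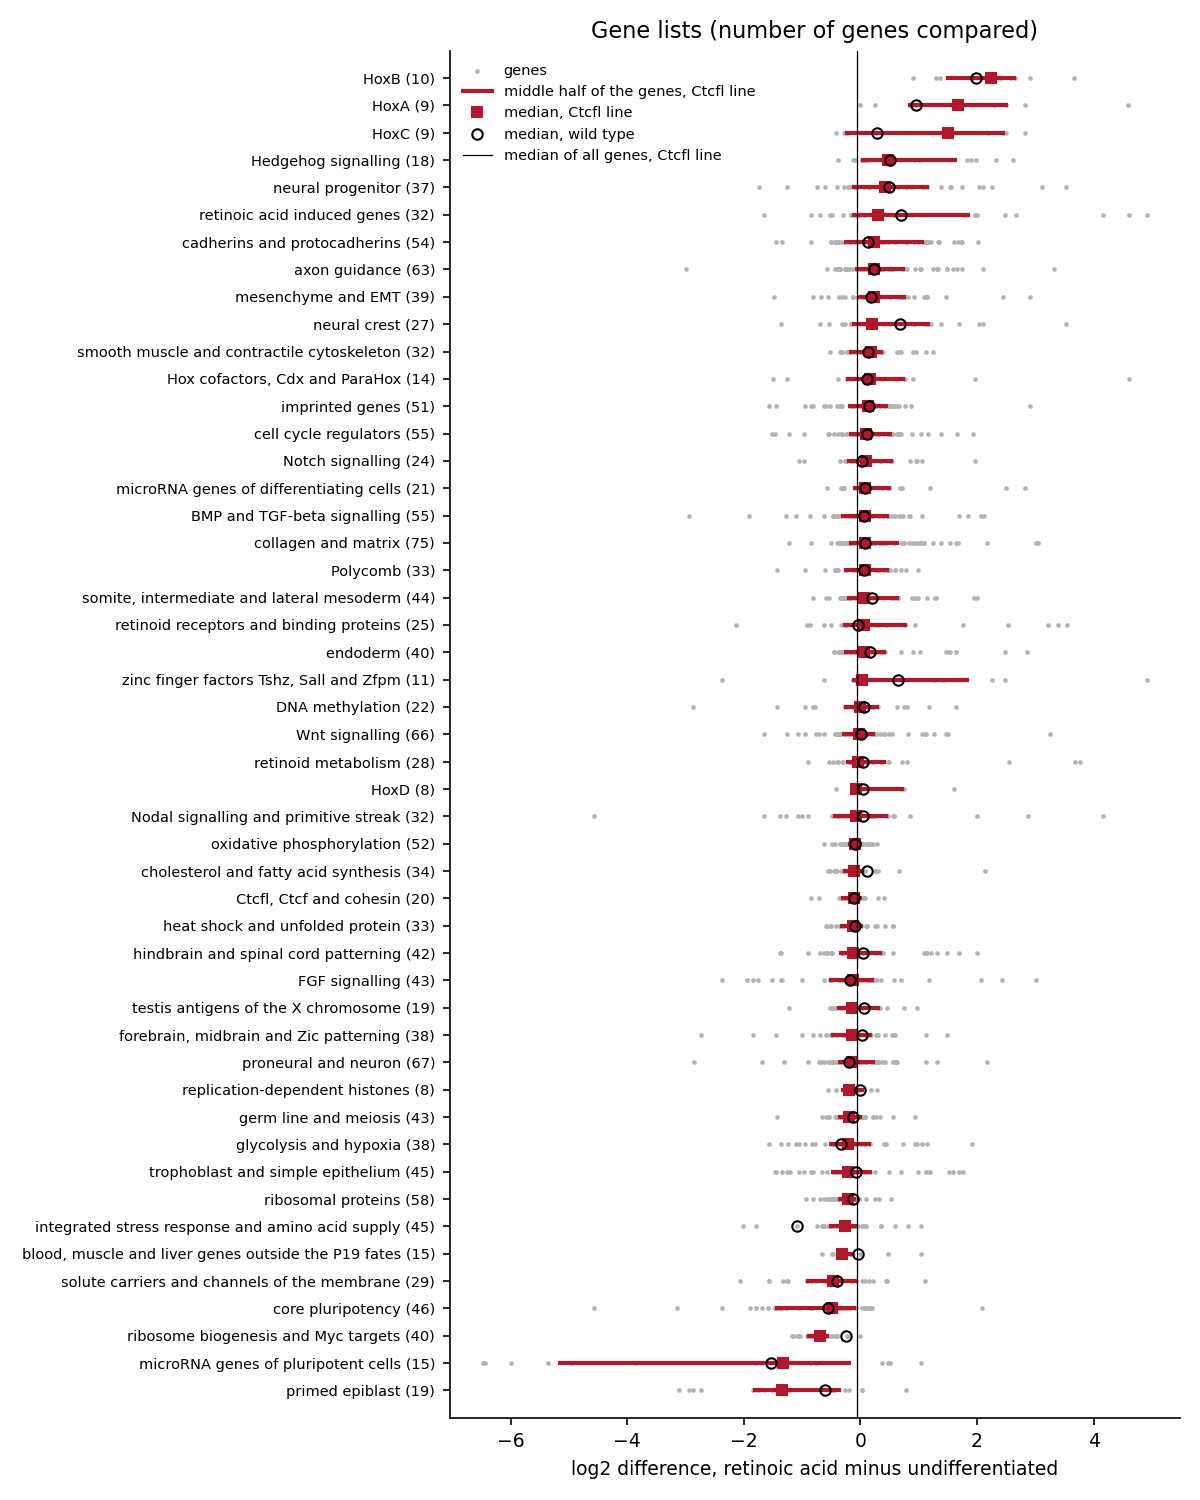
Log2 difference with retinoic acid (x axis) for each gene list with at least 8 genes past the filter (y axis, number of genes in brackets): grey points are genes, squares and bars the median and the 25th to 75th percentile in the Ctcfl line, open circles the wild-type median, and the vertical line the median of all genes in the Ctcfl line (-0.05). HoxB lies highest, with a median of 2.23, and the primed epiblast and pluripotent microRNA lists lowest, with -1.34 and -1.32; ribosome biogenesis lies at -0.69 and at -0.24 in wild type.

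Genes of ribosome production were lower as a group, each by a modest amount. All 40 genes of ribosome biogenesis and Myc targets had differences below 0, with a median of -0.69 against -0.24 in wild type, and 7 were at least 2-fold lower, where wild type had 0. These 7 were Rrp12 (2.25-fold), Ddx21 (2.22-fold), Wdr12 (2.14-fold) and, at up to 2.07-fold, Heatr1, Srm, Grwd1 and Dkc1, of which Srm differed by -0.98 after quantile normalization. Ncl, an abundant nucleolar protein, had signals of 12.35 and 11.53, and of 11.99 and 11.66 in wild type. Myc, which drives these genes in many cells, had signals of 9.80 and 9.24 in the Ctcfl line, and of 8.84 and 9.88 in wild type. Mycn was 2.76-fold lower in the Ctcfl line. Ribosomal protein genes differed less, with a median of -0.22 and 0 of 58 past 2-fold.

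The integrated stress response and amino acid supply list differed little in the Ctcfl line and more in wild type. Of its 45 genes 1 was higher and 3 were lower in the Ctcfl line (median -0.26), and 0 and 26 in wild type (median -1.09). The median signal of the list was 9.96 undifferentiated and 9.69 with retinoic acid in the Ctcfl line, and 10.76 and 9.17 in wild type, so the Ctcfl line lay below wild type undifferentiated and above it with retinoic acid. Asns, which makes asparagine, had signals of 11.72 and 11.16, against 12.38 and 10.53 in wild type, and Chac1, which degrades glutathione, of 8.65 and 8.02, against 10.09 and 7.63. The 3 lower genes were Cth (4.05-fold) and Cbs (2.13-fold), of the transsulfuration pathway, and the amino acid transporter Slc7a3 (3.45-fold). Atf3, a stress factor, was the higher one, at 2.07-fold, and differed by 0.95 after quantile normalization, which ends that call.

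Of 38 glycolysis and hypoxia genes 3 were higher and 5 lower. The lower ones were Slc16a3, a lactate exporter (2.97-fold), Ldha (2.57-fold), Pfkl (2.37-fold), Pfkp (2.14-fold) and Pdk1 (2.08-fold, or a difference of -0.62 with its probe sets averaged). The lactate dehydrogenase subunits differed in opposite directions: Ldhb had signals of 9.94 and 11.08. Eno3, an enolase of muscle, was 3.76-fold higher and Vegfa 2.09-fold (0.98 after quantile normalization). Abca1, a cholesterol exporter, was 4.38-fold higher and the only gene past 2-fold among 34 of cholesterol and fatty acid synthesis (2.94%). Of 52 genes of oxidative phosphorylation 0 passed 2-fold, as did 0 of 33 of heat shock and protein folding. Among all genes 3.21% were higher and 1.50% lower, and at those shares lists this short would hold few such genes.

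Among 55 cell cycle regulators 5 were higher and 3 lower. Ccnd1, a G1 cyclin, had signals of 11.34 and 9.82, against 9.52 and 9.42 in wild type, and Ccnd2 of 10.33 and 11.48, against 10.03 and 12.16. Cdkn1a, an inhibitor of cyclin-dependent kinases, was 2.34-fold lower. Ccng2 and Trp53inp1, which restrain growth, were 3.15-fold and 2.60-fold higher, and Rb1 had signals of 7.60 and 9.53. The Rb1 difference was 1.93, and 1.26 with its probe sets averaged.

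Ctcfl itself was high on both arrays that carried the transgene. Its signal was 10.41 undifferentiated and 9.56 with retinoic acid, a difference of -0.85, and 7.86 and 7.13 in wild type. It was not tested how much of this signal comes from the transgene and how much from the cells' own gene. Ctcf had signals of 10.87 and 10.80. None of 20 genes of the Ctcfl, Ctcf and cohesin list passed 2-fold, beside 3.21% higher and 1.50% lower among all genes. At those shares a list this short would hold few such genes. Among testis genes Stag3 differed by 0.05, Smc1b by -0.03, Prss50 by -0.01 and Stra8, a gene of meiotic entry that retinoic acid induces in germ cells, by 0.33. Of 43 germ line and meiosis genes 0 were higher and 1 (2.33%) was lower, Tdrd5 (2.68-fold), which is near the shares of all genes. Of 22 DNA methylation genes 2 were higher and 2 lower, 9.09% each. Dnmt3b was 1 of the 2 lower ones, while Dnmt1 differed by 0.07 and Dnmt3a by -0.27. The demethylating enzymes Tet2 and Tet3 were 3.10-fold and 2.26-fold higher, while Tet1 differed by -0.79. Of 51 imprinted genes 1 (1.96%) was higher, Dcn, and 2 (3.92%) were lower, Calcr (2.95-fold) and Magel2 (2.73-fold). Among all genes the shares were 3.21% and 1.50%, so these counts are near what a list this short would hold.

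Set beside wild type, most of the large differences had the same direction. Of the 588 higher genes 548 also lay above 0 in wild type and 276 (46.9%) were at least 2-fold higher there, where 2.58% of all genes were. Of the 274 lower genes 263 lay below 0 in wild type and 164 (59.9%) were at least 2-fold lower, where 2.62% of all genes were. No gene was at least 2-fold apart in opposite directions. In reverse, 58.4% of the 473 genes higher in wild type and 34.2% of the 479 lower in wild type were past 2-fold in the Ctcfl line. The median of the wild-type lower genes was -1.33 in wild type and -0.67 in the Ctcfl line. Each set was chosen by its size on the arrays of its own line, and the part of that choice in these gaps was not tested.

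The Ctcfl-line difference exceeded the wild-type one by at least 2-fold for 348 genes (1.90%) and fell short of it by as much for 138 (0.754%). Of the 348 genes 107 were at least 2-fold higher in the Ctcfl line, 10 were at least 2-fold lower and 231 were within 2-fold. For 210 of them the lines lay farther apart undifferentiated than with retinoic acid, and for 138 the reverse held. Of the 138 genes with the smaller or more negative difference 78 lay farther apart undifferentiated and 60 with retinoic acid. Besides Lefty1, Hhip and Lefty2, large positive gaps were found for Pde9a, a phosphodiesterase (2.50), Acss1, an acetate-activating enzyme (2.34), and Rassf4 (2.34). With probe sets averaged the Acss1 gap was 1.31 and its Ctcfl-line difference was 1.04 in place of 1.85. Rassf4 had signals of 7.04 and 6.64, against 9.50 and 6.77 in wild type, so the gap lay in the undifferentiated cells. The largest negative gaps were those of Nepn (-2.97), Twist1 (-2.65), Flrt2 (-2.57), Ripply3 (-2.28), Rtl8c (-2.25) and Osr1 (-2.23). Flrt2 had signals of 6.73 and 6.73, against 6.58 and 9.16, and Ripply3, a factor of the pharynx, of 7.24 and 8.57, against 7.30 and 10.91, so for these the gap lay with retinoic acid.

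**Figure D5:**
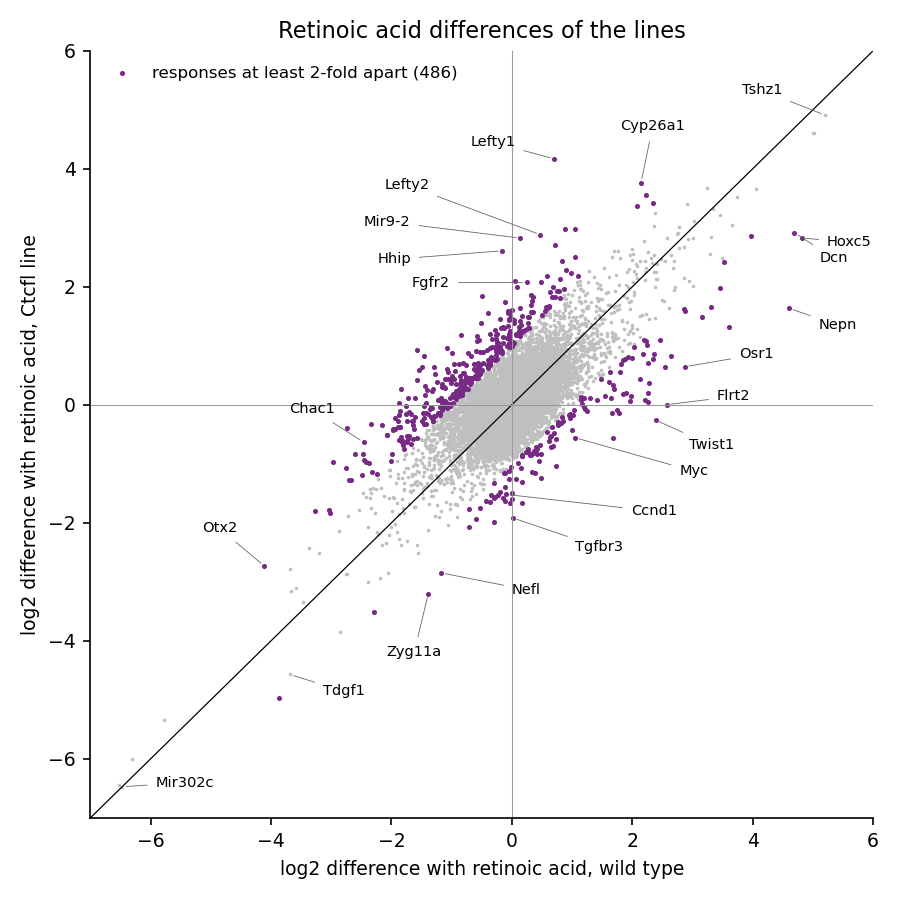
Log2 difference with retinoic acid in wild type (x axis) and in the Ctcfl line (y axis) for each of 18310 genes; purple marks the 348 and 138 genes whose differences were at least 2-fold apart and the diagonal marks equal differences. Tshz1 and Mir302c lie near the diagonal, Lefty1 and Hhip above it and Nepn and Twist1 below it.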

How the data were processed

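Total RNA from P19 cells was extracted with the RNeasy Mini kit, and biotin-labelled cRNA was hybridised to Affymetrix arrays, per the labels' protocols. The authors deposited log2 signals per probe set. These are RMA values from Expression Console, per the labels, a method that subtracts background, puts the arrays on a common scale and sums up each probe set. Affymetrix Expression Console and Transcriptome Analysis Console are named in the submitters' processing notes. Versions and the genome build are not given in the sources used here.

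Values were used as deposited. Of 41345 probe sets 23521 had 1 gene symbol, 1814 had several and 16010 had none in the probe annotation. Of the 23521, 23328 matched the gene table by Entrez gene identifier. Where a gene had several probe sets of 1 symbol, the one with the highest mean was taken, and genes below log2 6 on all 4 arrays were left out, which kept 18310 of 22180. No test was made, since each group has 1 array, and genes were counted at 2-fold. Promoters and microRNAs came from RefSeq tables on GRCm38.p6.

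Lists (49 of them, with 1827 genes, of which 1537 passed the filter) were described by counts and medians. The members and lists were chosen with earlier results of these data known. Named genes were those of the lists, the 25 highest and 25 lowest, and the 15 largest differences between the lines in each direction. Larp7, Spaca6, C130071C03Rik, Casd1, Slc25a21, Tinagl1 and Akt1 fall outside this rule and were named after their values were seen, as host transcripts or motif matches. The alternatives tried were a 3-fold threshold, quantile normalization, a filter at log2 7 or none, the averaging of a gene's probe sets and, chosen after seeing the data, a filter on the 2 Ctcfl-line arrays and setting signals below log2 6 to 6. The counting code was run on simulated arrays with planted differences. That run checks the code only and says nothing of calls near 2-fold or of variation between cultures. Python 3.11.15, pandas 2.3.3, numpy 2.4.6 and matplotlib 3.10.9 were used.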

Additional observations from a re-analysis of the deposited data

Results flagged for a closer look

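For 49 named genes the retinoic acid difference had opposite signs in the lines and the gap was at least 2-fold. In 28 of these, among them Hhip, Twist1, Rdh10, Nid1, Erbb3, Tgfbr3 and Cdx2, at least one of the differences lay within the technical SD of 0.331, and the other 21 are given here. With 1 array a condition these gaps were not tested. The Ctcfl line minus wild type gap in log2 difference was positive for Pde9a (2.50), Acss1 (2.34), Vldlr (2.28), Ddit3 (2.14), Actn3 (2.13), Txnip (2.05), Abcd2 (2.03), Dnajc6 (2.00), Thbs2 (1.94), Ripply1 (1.88), Thbs1 (1.67), Aqp3 (1.65), Mirlet7e (1.56), Nupr1 (1.27) and Unc5a (1.09). With probe sets averaged the gap was 1.31 for Acss1 and 1.07 for Mirlet7e. It was negative for Rtl8c (-2.25), Myc (-1.61), Cdh5 (-1.42), Tfap2a (-1.38), H4c9 (-1.18) and Cldn6 (-1.04). Several of the positive ones, among them Ddit3, Vldlr, Txnip and Thbs1, stood lower in the undifferentiated Ctcfl line than in undifferentiated wild type: Ddit3 at 8.26 against 9.47, Vldlr at 7.83 against 8.86, Txnip at 9.17 against 11.38 and Thbs1 at 8.08 against 8.92.

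Probe sets without a gene symbol were not compared gene by gene. Of 10332 that passed log2 6, 845 (8.18%) were at least 2-fold higher with retinoic acid in the Ctcfl line and 101 (0.98%) lower, beside 639 (6.18%) and 111 (1.07%) in wild type. Of 1418 probe sets with several gene symbols 25 (1.76%) were higher and 14 (0.99%) lower, beside 29 and 18 in wild type.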

How the results depend on the processing

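No paired analysis was possible because each group had 1 array. The counts of genes at least 2-fold higher (588) and lower (274) in the Ctcfl line were 614 and 283 with no filter, 576 and 266 with a filter at log2 7, 520 and 319 after quantile normalization, 569 and 265 with each gene's probe sets averaged, 587 and 273 with the filter on the Ctcfl-line arrays, and 572 and 265 with signals under log2 6 set to 6. A 3-fold threshold gave 204 and 81. With the filter at log2 7 the medians were 2.19 for HoxC (7 genes), 0.72 for HoxD (4 genes) and -1.80 for the microRNA genes of pluripotent cells (13 genes), each by more than the technical SD from the main value, because fewer genes were compared. The other 291 list medians stayed within that SD. Of named genes 28 moved by more than the SD, all with probe sets averaged. With that setting 8 named genes were no longer 2-fold apart, Dll1 (0.97), Dpysl3 (0.56), Gata3 (0.60), Irx3 (0.75), Mirlet7e (0.88), Pdk1 (-0.62), Slc29a1 (-0.55) and Zic5 (-0.97), and 1 newly was, Nkx1-2 (-1.20). After quantile normalization 13 were no longer 2-fold apart, Atf3, Bmp1, Cd68, Dkk1, Efna5, Lama1, Mxd4, Notch1, Pax6, Srm, Thbs1, Vcan and Vegfa, and another 13 newly were. With signals under log2 6 set to 6 the calls of Mir9-2 and Cdh12 ended. No list median past 2-fold changed sign, and no named gene past 2-fold did after quantile normalization or with probe sets averaged. Other genes were not checked for this. The single array a side limits every difference, and signals under log2 6 limit the folds of the Mir302 and Mir367 genes.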

Other observations

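Chromosomes differed in their share of genes at least 2-fold higher with retinoic acid in the Ctcfl line, from 2.18% on chromosome 7 to 7.17% on chromosome 18 (32 of 446 genes). Of the 32 genes on chromosome 18, 10 belong to the protocadherin genes there, of which 21 were compared. Without the protocadherins the share was 22 of 425 (5.18%), against 3.21% of all genes. The share of genes at least 2-fold lower was 3.44% on the X chromosome (22 of 640), against 1.50% of all genes. These shares are descriptions of 2 arrays and were not tested.

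Of 274 microRNA genes compared 20 (7.30%) passed 2-fold upwards and 10 (3.65%) downwards, against 3.21% and 1.50% of all genes. With signals under log2 6 set to 6, 15 (5.47%) passed upwards and 10 downwards. Of 1418 long non-coding RNA genes 19 (1.34%) were higher and 9 (0.635%) lower.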
